A study of Mus musculus with 34 samples.

Results

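The genes described are the heat shock proteins and DnaJ co-chaperones of the mouse brain: all protein-coding genes of the deposited table whose GENCODE M21 symbol begins with Hspa, Hspb, Hsp90, Hsph, Hspd, Hspe or Dnaj. This rule found 68 genes among the 18548 in the table, and 6 further annotated genes, Dnajb7, Dnajb8, Dnajc22, Dnajc5b, Dnajc5g and Hspb9, are not analysed here. The 68 comprise 13 HSP70 genes, 1 HSP110 gene (Hsph1), 3 HSP90 genes, 2 chaperonin genes (Hspd1 and Hspe1), 7 genes named as small heat shock proteins, and 4 DnaJ A, 11 DnaJ B and 25 DnaJ C genes. The prefix also catches 2 genes that are not heat shock proteins, Hspbp1, a nucleotide exchange factor of HSP70, and Hspbap1. The set was proposed with Hspa1b already seen to be lower in Myt1l heterozygotes of these same libraries. For that reason the genotype differences below are given as a description, without a test.

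HSP70 proteins bind unfolded stretches of other proteins and release them in cycles of ATP hydrolysis. DnaJ proteins bring substrates to HSP70 and start that hydrolysis. Nucleotide exchange factors such as the HSP110 proteins act after it, when the spent nucleotide is released. HSP90 proteins take over partly folded clients such as kinases and steroid receptors. Small heat shock proteins hold unfolded proteins without ATP, and the chaperonin pair folds proteins inside mitochondria. On heat or proteotoxic stress the factor Hsf1 switches on a subset of these genes, of which Hspa1a and Hspa1b are the classic inducible ones, whereas Hspa8 and Hsp90ab1 are made in unstressed cells. Neurons depend on particular DnaJ proteins, among them the synaptic vesicle protein Dnajc5 and the clathrin-uncoating protein Dnajc6.

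The libraries came from untreated C57BL/6J males (postnatal day 56) and from prefrontal cortex (PFC), hippocampus and striatum. The groups were Myt1l heterozygotes (HT) with 5 libraries in PFC, 5 in hippocampus and 6 in striatum, and wild type (WT) with 6 libraries in each region. The Myt1l protein is a zinc finger regulator of transcription in neurons. The labels do not describe the mutant allele or say whether libraries came from separate animals, so p-values measure the spread between these 34 libraries, which may in part be technical. The values, called normalized counts, were scaled between libraries by the submitters.

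The column names carry 12 codes, 10 of them in all 3 regions, and code 31-67M stands on WT replicate 6 in PFC but on HT replicate 1 in hippocampus and in striatum. The labels were followed. The Hspa1b genotype differences, single-gene region calls that changed and the number of genes called in the genotype average are also given without these libraries. The HT region counts and the correlations are not given without this code. Myt1l RNA spanned 6388 to 7525 normalized counts in HT and 5578 to 7992 in WT of PFC, 6645 to 7550 in HT and 5552 to 7186 in WT of hippocampus, and 7064 to 9505 in HT and 6923 to 8275 in WT of striatum. The genotypes overlapped in every region, so Myt1l RNA does not separate the libraries labelled HT from those labelled WT. Region labels fitted the striatal markers: the summed level of 10 striatal markers was 65720 to 99113 normalized counts in striatum, 6811 to 12562 in PFC and 4882 to 6375 in hippocampus. The other lists were less clear. The 7 cortex markers summed to 51030 to 54557 in WT PFC, 39210 to 41244 in WT hippocampus and an uneven 2401 to 12746 in WT and 2312 to 11757 in HT of striatum. Of 8 hippocampal markers, 5 were lower and 2 higher in WT PFC than in WT hippocampus. The cause was not tested. Library sums were 25786041 to 29798959 normalized counts, and the steps between low values put the depth at an estimated 24098000 to 39389000 reads.

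Hspa1b (ENSMUSG00000090877; GRCm38 chromosome 17, 34956436 to 34959238, minus strand) and Hspa1a (ENSMUSG00000091971; chromosome 17, 34969190 to 34972156, minus strand) are neighbouring genes of a single exon each. Their promoters are printed because the results turn on this pair, together with that of Hspd1, which shares its upstream DNA with Hspe1 on the opposite strand. Each line gives the 250 bases before the RefSeq start on the gene's own strand (GRCm38.p6), with inverted pairs of the heat shock element unit, GAANNTTC or TTCNNGAA, in capitals.
Hspa1b, chr17:34959239-34959488, minus strand: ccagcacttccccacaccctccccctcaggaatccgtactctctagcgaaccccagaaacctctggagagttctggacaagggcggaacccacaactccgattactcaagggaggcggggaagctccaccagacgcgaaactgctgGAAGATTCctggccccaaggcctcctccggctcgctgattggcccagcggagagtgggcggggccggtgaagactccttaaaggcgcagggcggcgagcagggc
Hspa1a, chr17:34972157-34972406, minus strand: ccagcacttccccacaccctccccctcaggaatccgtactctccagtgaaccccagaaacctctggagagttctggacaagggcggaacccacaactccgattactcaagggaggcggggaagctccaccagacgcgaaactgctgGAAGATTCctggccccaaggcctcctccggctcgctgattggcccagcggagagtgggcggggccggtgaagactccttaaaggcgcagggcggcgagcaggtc
Hspd1, chr1:55087933-55088182, minus strand: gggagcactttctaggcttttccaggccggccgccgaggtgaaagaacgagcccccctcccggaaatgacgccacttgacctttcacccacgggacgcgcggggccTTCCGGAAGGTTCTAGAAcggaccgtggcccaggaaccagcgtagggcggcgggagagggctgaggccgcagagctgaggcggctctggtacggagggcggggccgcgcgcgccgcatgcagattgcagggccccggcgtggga
The Hspa1b and Hspa1a windows are identical at 247 of 250 positions. Counted from 1 at the 5′ end of the window, with the Hspa1b base first, the differences are T44C, C47T and G249T. Both hold GAANNTTC at 104 bases before the start (position -104), and the Hspd1 window holds overlapping pairs from -144 to the pair at -134. A list of 11 genes with heat shock response in view is called inducible here, although its members Hspa8 and Hsp90ab1 are also made in unstressed cells; of the 11, 8 had a promoter in the RefSeq table; 7 of these 8 and 14 of 56 matched members held either pair, as did 14.5% of 27025 genes. Runs in which a pair of one kind overlaps a pair of the other were in 2 of the 8, in 3 of the 56 and in 0.514% of all genes. The search covers both strands, since each pair is its own reverse complement, and a match describes letters in this window only. The transcripts are also near copies: of all 100-base windows of the coding sequence, 68.0% in Hspa1b and 68.1% in Hspa1a occurred in the other gene, against 0% in either 3′ UTR. Reads from the shared coding stretches can be divided between the pair by the quantification, so single values of Hspa1a and Hspa1b are uncertain and their sum is given beside them.

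Per kilobase of annotated exon, the cytosolic HSP70 and HSP90 genes Hspa8, Hsp90ab1 and Hsp90aa1 far exceeded the other members in WT brain. Hspa8, the constitutive HSP70, averaged 10537 normalized counts per kb over the 3 regions, Hsp90ab1 10484 and Hsp90aa1 7828. Only 42 of the 18533 genes with a length lay above Hspa8. The endoplasmic reticulum members Hsp90b1 (2326 per kb) and Hspa5 (1813 per kb) and the mitochondrial Hspd1 (1612 per kb) came next. Among DnaJ genes the highest were Dnaja2 at 1494 per kb, a cytosolic partner of HSP70, Dnajc5 at 1406 per kb and Dnajc6 at 1377 per kb. Hspa1b (141 per kb) and Hspa1a (92.7 per kb) ranked at positions 49 and 55 of the 68, and Hspb7, at 2.86 per kb, was last. The median was 306 per kb for the members and 90.5 per kb for all genes.

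**Figure D1:**
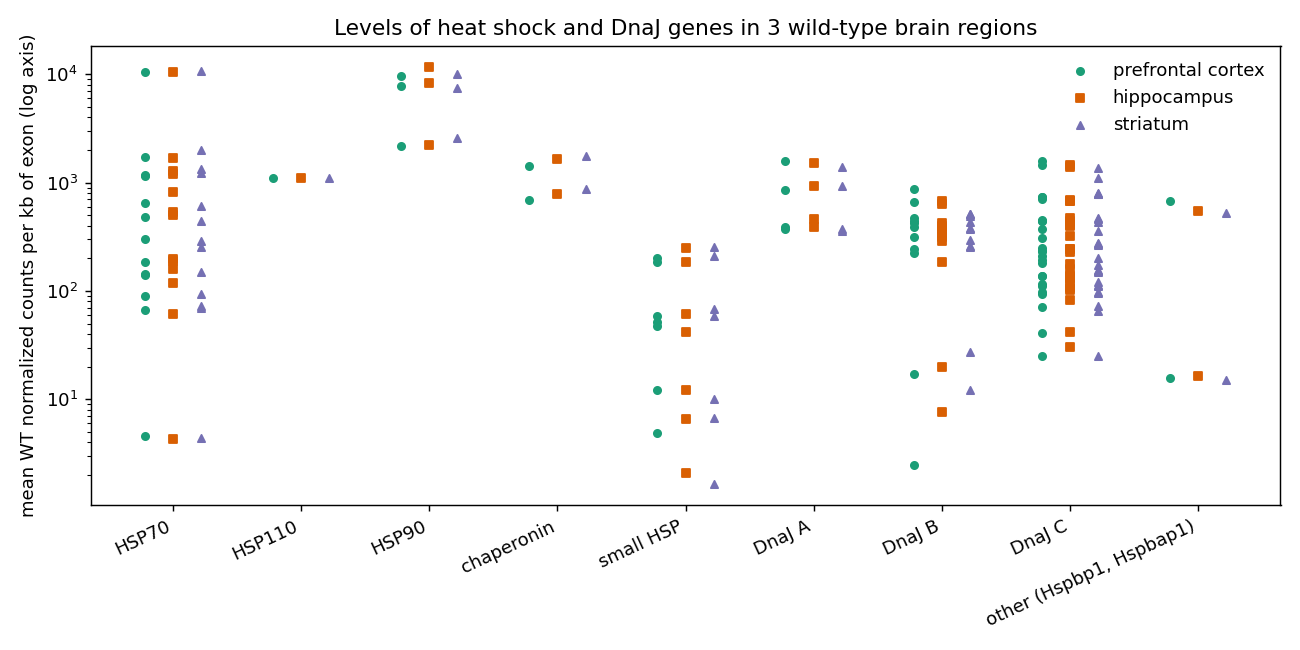
Mean normalized counts per kb of exon in WT prefrontal cortex, hippocampus and striatum (6 libraries each) for each of the 68 genes, grouped by family; the axis is logarithmic. Hspa8 and the cytosolic HSP90 genes lie at the top in each region, and Hspb7 lies lowest by the mean of the regions.

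Within WT, 66 of the 68 members passed the level filter (a mean of at least 10 normalized counts over the 18 WT libraries), Hspa1l among them and Hspb7 and Hspb2 not, and were tested with limma and Benjamini-Hochberg adjustment over 17017 genes at 0.05. Between PFC and hippocampus 26 members differed, 11 higher and 15 lower in PFC, where 46.3% of all genes tested differed (22.7% higher and 23.6% lower). Between PFC and striatum 39 differed, 16 higher and 23 lower in PFC, against 56.6% of all genes (27.7% higher and 29.0% lower), and between hippocampus and striatum 35 differed, 19 higher and 16 lower in hippocampus, against 47.5% (23.6% higher and 23.9% lower). The shares of members are near those of all genes. Their median log2 differences were -0.03, -0.06 and -0.01, beside -0.01 in each comparison for all genes. Of the 66 members, 11 differed in all 3 comparisons, 29 in 2, 9 in 1 and 17 in 0. When libraries were scaled to equal totals, the median of all genes moved to -0.10, -0.15 and -0.06, and the members split into 6 higher and 31 lower (PFC against hippocampus), 10 and 35 (PFC against striatum) and 14 and 18 (hippocampus against striatum). All 17017 genes split into 2884 higher and 5783 lower, 3155 and 7264, and 3335 and 4926. The direction of small differences thus depends on the scaling. In the libraries of codes starting with 35 (4 of 6 in each WT group), 22, 34 and 30 members differed, beside 6645, 8545 and 6602 of 17040 genes; codes beginning with 31 or 37 hold 1 library of a group.

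In HT libraries, which were fitted separately, 32, 44 and 35 members differed in the same 3 comparisons, where 42.6%, 54.9% and 45.3% of genes did. The members higher and lower numbered 13 and 19, 19 and 25, and 18 and 17, beside 20.7% and 21.9%, 26.9% and 28.1%, and 22.7% and 22.6% of genes. The members called in both genotypes numbered 21, 37 and 31, and all of them had the same direction in HT and WT. They make up 65.6%, 84.1% and 88.6% of the members' HT calls, beside 83.0%, 85.9% and 84.1% over all genes, and 80.8%, 94.9% and 88.6% of the WT calls, beside 76.6%, 83.6% and 80.4%. Equal library totals split the HT calls into 4 higher and 26 lower, 11 and 35, and 14 and 19, where all genes gave 2627 and 5456, 3088 and 7134, and 3198 and 4632 of 17080.

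**Figure D2:**
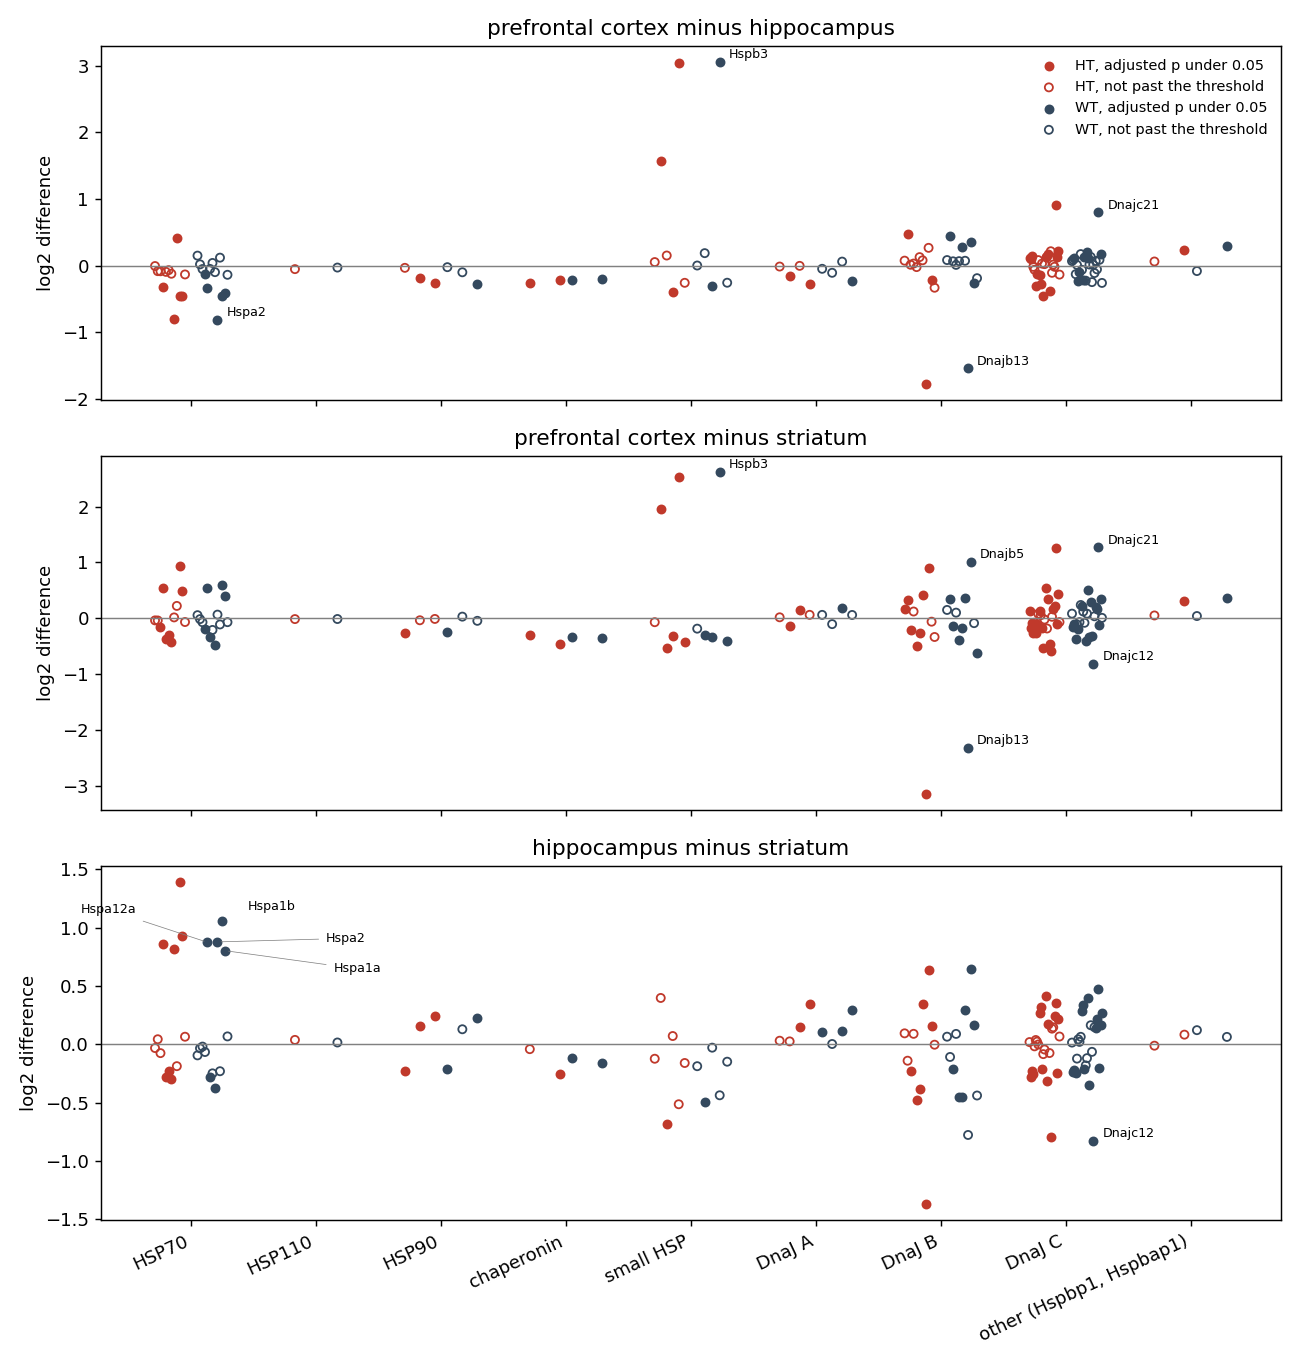
Log2 differences between regions for each member, by family, in HT (red, left of each pair) and WT (dark, right); filled points passed an adjusted p of 0.05 and open points did not. Hspb3 stands far above 0 in both comparisons of prefrontal cortex, Dnajb13 far below, and Hspa1b, Hspa2, Hspa12a and Hspa1a lie between 0.80 and 1.06 in WT hippocampus against striatum.

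Among HSP70 genes the inducible pair was highest in hippocampus and lowest in striatum. Hspa1b spanned 286 to 457 normalized counts in PFC (median 397), 463 to 602 in hippocampus (median 535) and 150 to 329 in striatum (median 288) of WT. Every WT hippocampal library lay above every WT library of the other regions, while PFC and striatum overlapped. The log2 difference was -0.46 (SE 0.15; limma adjusted p = 0.0162) for PFC against hippocampus, 0.60 (SE 0.15; adjusted p = 0.0019) for PFC against striatum and 1.06 (SE 0.15; adjusted p = 5.0e-06) for hippocampus against striatum. Hspa1a averaged 266 ± 29.1 in PFC, 353 ± 35.3 in hippocampus and 205 ± 44.9 in striatum (SD, n = 6 each), with log2 differences of -0.41, 0.40 and 0.80. Its PFC against striatum call, at an adjusted p of 0.00754 in limma, was lost with equal library totals (adjusted p = 0.0761) and within code 35 (adjusted p = 0.128). In HT libraries the hippocampus against striatum difference was 1.39 (SE 0.16) for Hspa1b and 0.93 (SE 0.15) for Hspa1a.

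Hspa2, an HSP70 best known from male germ cells, was at 728 to 884 normalized counts in WT PFC, 1205 to 1547 in WT hippocampus and 640 to 855 in WT striatum. No hippocampal library overlapped the other regions. The difference was -0.81 (SE 0.07; limma adjusted p = 4.7e-09) for PFC against hippocampus and 0.88 (SE 0.07; adjusted p = 9.4e-10) for hippocampus against striatum, and PFC against striatum did not pass at 0.06. Hspa12a, a distant HSP70 relative, differed in all 3 comparisons and averaged 5999 ± 581 in PFC, 7534 ± 366 in hippocampus and 4106 ± 171 in striatum (SD, n = 6 each). Its hippocampus against striatum difference was 0.88 (SE 0.05; limma adjusted p = 2.9e-12). Hspa13, an HSP70 of the endoplasmic reticulum, and Hspa4l, of the branch that acts in nucleotide exchange, were lower in PFC and in hippocampus than in striatum. Hspa13 fell short of striatum by 0.48 in PFC and 0.38 in hippocampus (SE 0.04 each), and Hspa4l by 0.34 and 0.28 (SE 0.05 each). Hspa8 did not pass in any of these, at 0.02, -0.02 and -0.03, and neither did Hspa5, the endoplasmic reticulum HSP70, at 0.04, -0.21 and -0.25. In HT libraries Hspa5 was lower in PFC than in striatum by a difference of -0.30 (SE 0.07; limma adjusted p = 0.0019); the difference between genotypes was not tested. In all, 0 HSP70 genes of 13 were higher and 5 lower in PFC than in hippocampus, 3 were higher and 3 lower in PFC than in striatum, and 4 were higher and 2 lower in hippocampus than in striatum. The shares of all genes were 22.7% and 23.6%, 27.7% and 29.0%, and 23.6% and 23.9%.

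Of the HSP90 genes, Hsp90ab1 was lower in PFC, at 29107 ± 1284 normalized counts, than in hippocampus, at 35159 ± 1129 (SD, n = 6 each), a log2 difference of -0.27 (SE 0.03; limma adjusted p = 4.8e-07), and the libraries did not overlap. Hippocampus was also higher than striatum for this gene, by 0.23 (SE 0.03). Hsp90aa1, its stress-inducible paralog, did not pass in any region comparison, at -0.10, 0.03 and 0.13. Without WT replicate 6 of PFC, the library of code 31-67M, its PFC against hippocampus difference was -0.15 (limma adjusted p = 0.0477), and in HT libraries it was -0.19 (SE 0.05; adjusted p = 0.00701). Hsp90b1, the endoplasmic reticulum HSP90, was 0.24 lower in PFC (SE 0.05) and 0.22 lower in hippocampus (SE 0.05) than in striatum. Hsph1, an HSP110 exchange factor, did not pass at -0.03, -0.01 and 0.02.

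The mitochondrial chaperonin Hspd1 and its lid Hspe1 moved alike and were lowest in PFC. Hspd1 averaged 3739 ± 301 normalized counts in PFC, 4335 ± 186 in hippocampus and 4698 ± 148 in striatum, and Hspe1 averaged 1011 ± 58.3, 1163 ± 114 and 1300 ± 93.5 in these regions (SD, n = 6 each). PFC was below striatum by a log2 difference of -0.33 for Hspd1 and -0.36 for Hspe1 and below hippocampus by -0.22 and -0.20, of which the Hspe1 call was not reached within code 35 (-0.14; limma adjusted p = 0.150). Their hippocampus against striatum calls, at adjusted p of 0.0432 and 0.0377 in limma, were each lost when single libraries were left out, 7 and 6 of the 12 libraries of those regions, with adjusted p up to 0.102 and 0.112. These libraries were hippocampus replicates 1, 2 and 4 and striatum replicates 1, 2, 3 and 5 for Hspd1, and hippocampus replicates 2, 4 and 5 and striatum replicates 1, 2 and 5 for Hspe1. Exons of the pair overlap on opposite strands and the labels do not state that counting used strand, so a part of their reads cannot be told apart. The HSP70 of mitochondria, Hspa9, was likewise lower in PFC, by -0.12 (SE 0.03) against hippocampus and -0.19 (SE 0.03) against striatum.

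Of the small heat shock genes, Hspb3, described in muscle, had the largest regional difference of the members fitted in WT. WT libraries held 24.6 to 65.8 normalized counts in PFC (median 45.1), 1.81 to 10.6 in hippocampus (median 4.44) and 2.64 to 21.3 in striatum (median 5.07). PFC libraries all lay above those of the other regions. Hspb3 passed the level filter only through PFC, where it is high, so its difference, 3.06 (SE 0.42) for PFC against hippocampus and 2.62 (SE 0.42) for PFC against striatum, is a description, though the counts of calls above include it. At these low counts the fold depends on the pseudocount, and with 10 in place of 1 the differences were 1.87 and 1.67. The HT libraries gave 3.04 and 2.53. Hspb7, also known from heart muscle, passed the filter in HT for the same reason; it held 15.5 to 25.5 in PFC, 3.54 to 13.6 in hippocampus and 0.879 to 12.8 in striatum of HT, where PFC lay above both other regions.

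Hspb8, which works with the co-chaperone Bag3, was lower in WT PFC, at 355 to 488 normalized counts (median 376), than in WT hippocampus, at 449 to 542 (median 478; log2 difference -0.31, SE 0.08). It was also 0.34 lower in PFC than in striatum. Hspb6 was 0.50 lower in hippocampus (SE 0.11) than in striatum and 0.31 lower in PFC. Hspb11, a part of the intraflagellar transport machinery in spite of its name, was 0.41 lower in PFC than in striatum, which did not pass within code 35 (limma adjusted p = 0.0969). Hspb1, the inducible small heat shock protein of the list, did not pass between any regions, with differences of 0.00, -0.19 and -0.19. Hspb2 and Cryab have overlapping exons on opposite strands, and Hspb6 overlaps Lin37 and Proser3.

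In the DnaJ B group, Dnajb1, the inducible partner of HSP70, was higher in PFC, at 1408 to 1585 normalized counts (median 1499), than in hippocampus, at 1004 to 1251 (median 1082), and striatum, at 1023 to 1355 (median 1205). PFC did not overlap either region in WT. The differences were 0.45 (SE 0.06; limma adjusted p = 3.2e-06) and 0.34 (SE 0.06; adjusted p = 7.2e-05). Dnajb5 averaged 5207 ± 638 in PFC, 4038 ± 279 in hippocampus and 2597 ± 350 in striatum (SD, n = 6 each) and differed in all 3 comparisons, by 0.36, 1.01 and 0.64. Without striatum replicate 4, Dnajb1 was also lower in hippocampus than in striatum (-0.15; limma adjusted p = 0.0453). In the comparisons of PFC, the 12 immediate early genes listed as markers of neuronal activity moved with Dnajb1 and Dnajb5: their summed level was 16824 to 28930 in WT PFC, 9304 to 11976 in WT hippocampus and 9461 to 12938 in WT striatum, 11 of 12 were higher in PFC than in hippocampus and 12 of 12 higher than in striatum, and their part in the result was not tested. Between hippocampus and striatum, where Dnajb5 differed, 4 of the 12 were higher and 4 lower, with a median of -0.02. None of the 12 was at 0 in any group.

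Dnajb13, a radial spoke protein of motile cilia, was at 1.53 to 13.0 normalized counts in PFC, 8.96 to 35.01 in hippocampus and 25.4 to 40.5 in striatum of WT. It passed the filter only through hippocampus and striatum, so its differences are a description too. PFC differed by -1.55 on the log2 scale from hippocampus (SE 0.36) and by -2.32 from striatum (SE 0.36), and by -0.85 and -1.40 with a pseudocount of 10. All 10 choroid plexus and ependymal markers were lower in PFC too: their sum was 288 to 366 in WT PFC, 2558 to 66001 in WT hippocampus and 23477 to 90649 in WT striatum, with none at 0 in any group. The ciliated cell genes Foxj1, Ccdc153 and Tmem212 summed to 64.9 to 133 in PFC, 363 to 499 in hippocampus and 720 to 1276 in striatum. Their part in the Dnajb13 difference was not tested, and in bulk tissue fewer cells of a type and less RNA per cell cannot be told apart. Dnajb13 exons also overlap Ucp2.

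Dnajb2 and Dnajb4 were highest in striatum. Dnajb2, a neuronal DnaJ that delivers clients to the proteasome, was 0.39 lower in PFC (SE 0.05) and 0.45 lower in hippocampus (SE 0.05) than in striatum, and Dnajb4 was 0.46 lower in hippocampus (SE 0.06). Dnajb4 was also 0.27 higher in PFC than in hippocampus (SE 0.06), a call not reached within code 35 (limma adjusted p = 0.0545). The 12 oligodendrocyte markers were likewise highest in striatum but all lower in PFC than in hippocampus, unlike Dnajb4: they summed to 94485 to 149210 normalized counts in WT PFC, 158330 to 206988 in WT hippocampus and 238508 to 290195 in WT striatum, with none at 0, and their part was not tested. Dnajb6, a suppressor of aggregation of polyglutamine proteins, went the other way and was 0.37 higher in PFC (SE 0.04; limma adjusted p = 1.5e-08) and 0.29 higher in hippocampus (SE 0.04) than in striatum. Dnajb14, of the endoplasmic reticulum membrane, was 0.26 lower in PFC than in hippocampus. Dnajb3 was at 18.0 ± 4.02 in PFC and 28.7 ± 6.73 in striatum (SD, n = 6 each), and its call (limma adjusted p = 0.0252) was lost without PFC replicate 4 or 6 or striatum replicate 1 or 6, at adjusted p of 0.0519 to 0.058. Of the 4 DnaJ A genes, 0 were higher and 1 lower in PFC than in hippocampus. The counts were 1 and 0 in PFC against striatum, and 3 and 0 in hippocampus against striatum. The shares of all genes were 22.7% and 23.6%, 27.7% and 29.0%, and 23.6% and 23.9%. Dnaja1, which was tested with the inducible list, did not pass at -0.11, -0.11 and 0.00. Without PFC replicate 6 its difference was -0.15 against hippocampus and -0.15 against striatum, at limma adjusted p of 0.0274 and 0.0247.

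The DnaJ C group held 25 members, of which 6 were higher and 3 lower in PFC than in hippocampus, 7 higher and 9 lower in PFC than in striatum, and 8 higher and 7 lower in hippocampus than in striatum. All genes had shares of 22.7% and 23.6%, 27.7% and 29.0%, and 23.6% and 23.9%. Dnajc21, which acts in ribosome maturation, differed between every pair of regions and was at 1014 to 1242 normalized counts in PFC, 583 to 715 in hippocampus and 423 to 500 in striatum of WT. The 3 regions did not overlap. The log2 differences were 0.80, 1.27 and 0.47 (SE 0.06 each), with a limma adjusted p of 9.7e-14 for PFC against striatum, and HT libraries gave 0.91, 1.27 and 0.35. Dnajc6, which strips clathrin from endocytosed vesicles, averaged 9293 ± 558 in PFC, 8588 ± 507 in hippocampus and 6530 ± 133 in striatum (SD, n = 6 each), so that striatum was lower by 0.51 and 0.39 (SE 0.04 each). Dnajc5, which protects SNARE proteins at the synapse, did not pass, at 0.07, 0.08 and 0.01.

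Dnajc12, a co-chaperone of the aromatic amino acid hydroxylases, was highest in striatum. It averaged 184 ± 28.8 normalized counts in PFC, 186 ± 46.8 in hippocampus and 325 ± 41.8 in striatum (SD, n = 6 each), and the differences from striatum were -0.82 (SE 0.14; limma adjusted p = 2.3e-05) and -0.83 (SE 0.14; adjusted p = 2.6e-05). Dnajc9, which handles histones, was 0.38 lower in PFC and 0.25 lower in hippocampus than in striatum, and Dnajc24, of diphthamide synthesis, was 0.41 lower in PFC than in striatum, a call not reached within code 35 (limma adjusted p = 0.0903). Dnajc2, a ribosome-associated DnaJ, was 0.35 lower in hippocampus than in striatum. Dnajc1, of the endoplasmic reticulum membrane, was 0.34 higher in hippocampus than in striatum. The mitochondrial Dnajc19 and Dnajc30 were 0.20 and 0.17 higher in PFC than in hippocampus, and neither call held with equal library totals (limma adjusted p = 0.212 and 0.182). Dnajc19 also lost its call without PFC replicate 1 or 2 or hippocampus replicate 2 or 6, at adjusted p of 0.0587 to 0.0745. Hspbp1, the exchange factor, was 0.30 higher in PFC (SE 0.05) than in hippocampus and 0.36 higher than in striatum.

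By compartment and role, 9 endoplasmic reticulum members counted 1 higher and 2 lower in PFC than in hippocampus, 0 and 4 in PFC against striatum, and 2 and 4 in hippocampus against striatum, with medians of -0.02, -0.15 and -0.21. A list of 6 DnaJ genes is called neuronal here: Dnajc5, Dnajc6, Dnajc13, Gak, Dnajb2 and Dnajb6, of which Gak is not a member. The name does not mean that these genes are confined to neurons. They counted 1 higher and 0 lower, 4 and 1, and 3 and 1, with medians of 0.07, 0.29 and 0.20. The 11 inducible genes (Hspa1a, Hspa1b, Hspa8, Hsph1, Hsp90aa1, Hsp90ab1, Hspb1, Hspd1, Hspe1, Dnaja1 and Dnajb1) counted 1 higher and 5 lower, 3 and 2, and 3 and 2, with medians of -0.11, -0.02 and 0.00. The median over all genes was -0.01 in each comparison. Of all genes, 22.7% were called higher and 23.6% lower, then 27.7% and 29.0%, and 23.6% and 23.9%.

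Among 36 pathway genes outside the members (Hsf and Bag factors, HSP90 co-chaperones, CCT subunits and others), 4 were higher and 13 lower in PFC than in hippocampus, 5 and 18 in PFC against striatum, and 5 and 11 in hippocampus against striatum. Over all genes, 22.7% were higher and 23.6% lower, then 27.7% and 29.0%, and 23.6% and 23.9%. Equal library totals moved all genes toward lower in PFC, and the pathway counts are not given under that scaling. Hsf4, a heat shock factor, was at 288 ± 26.1 normalized counts in PFC, 155 ± 23.5 in hippocampus and 216 ± 32.9 in striatum (SD, n = 6 each), with a log2 difference of 0.90 (SE 0.11; limma adjusted p = 5.0e-07) for PFC against hippocampus. Bag3, the partner of Hspb8, was 0.53 lower in PFC than in hippocampus and 0.54 lower than in striatum (SE 0.10 each). Fkbp5, a co-chaperone of HSP90 and the glucocorticoid receptor, was 0.72 lower in PFC than in hippocampus (SE 0.14) and 0.59 higher in hippocampus than in striatum. Sil1, the exchange factor of Hspa5, was 0.52 lower in PFC and 0.56 lower in hippocampus than in striatum (SE 0.08 each).

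The genotype comparison asked which members differ between heterozygotes and wild type within each region, and its values chose the set, so they are given as a description. Hspa1b held 254, 370, 287, 269 and 377 normalized counts in PFC HT libraries, against 286 to 457 (median 397) in PFC WT libraries. The highest HT library lay below 4 of the 6 WT libraries, and the groups overlapped. In hippocampus Hspa1b held 482, 468, 450, 338 and 403 in HT libraries, against 463 to 602 (median 535) in WT libraries. HT replicates 1 and 2 lay above WT replicate 1 and below the 5 other WT libraries. In striatum it held 102 to 210 (median 174) in HT libraries, against 150 to 329 (median 288) in WT libraries, with WT replicate 1 at 150 and replicate 6 at 219. The log2 difference of HT minus WT was -0.33 (SE 0.13) in PFC, -0.33 (SE 0.09) in hippocampus and -0.66 (SE 0.20) in striatum, and its average over the regions was -0.44 (SE 0.10). Hspa1b was the member farthest below 0 relative to its error in each of the 3 regions.

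Among libraries with a code that starts with 35, Hspa1b held 254 to 370 in HT and 286 to 457 in WT of PFC, 338 to 468 in HT and 525.7 to 601.7 in WT of hippocampus, and 102 to 210 in HT and 275 to 329 in WT of striatum. The differences there were -0.41, -0.42 and -0.88, with 4 libraries in each group but 3 in hippocampus of HT. The share of all genes that separate in groups this small is not given. Nothing is therefore read from the lack of overlap in hippocampus and striatum. The single libraries with other codes did not all follow: with code 37 the HT library held 377 and the WT library 365 in PFC, and with code 31 the HT library held 482 and the WT library 463 in hippocampus. HT was the lower of such a pair in hippocampus with code 37 (403 and 525) and in striatum with code 31 (142 and 150) and code 37 (171 and 219). Without the libraries of code 31-67M the differences were -0.32, -0.37 and -0.62. Left-out libraries, each in turn, gave -0.42 to -0.26 in PFC, -0.37 to -0.25 in hippocampus and -0.81 to -0.53 in striatum.

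Hspa1a, the near copy, lay closer to 0, at -0.10, -0.05 and -0.18. It averaged 252 ± 49.0 normalized counts in HT and 266 ± 29.1 in WT of PFC, and 179 ± 29.1 in HT and 205 ± 44.9 in WT of striatum (SD, n = 5 and 6, then 6 each). The sum of the pair averaged 564 ± 81.4 in HT and 658 ± 58.8 in WT of PFC, 771 ± 89.7 in HT and 888 ± 69.5 in WT of hippocampus, and 344 ± 62.5 in HT and 468 ± 103 in WT of striatum. The difference of its mean log2 values was -0.23, -0.21 and -0.43. Hspa1b made up 55.3% ± 6.41 of the sum in HT and 59.2% ± 5.57 in WT of PFC, 55.5% ± 4.89 in HT and 60.2% ± 2.16 in WT of hippocampus, and 47.6% ± 4.72 in HT and 55.8% ± 4.77 in WT of striatum. Sums and shares overlapped between the genotypes.

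**Figure D3:**
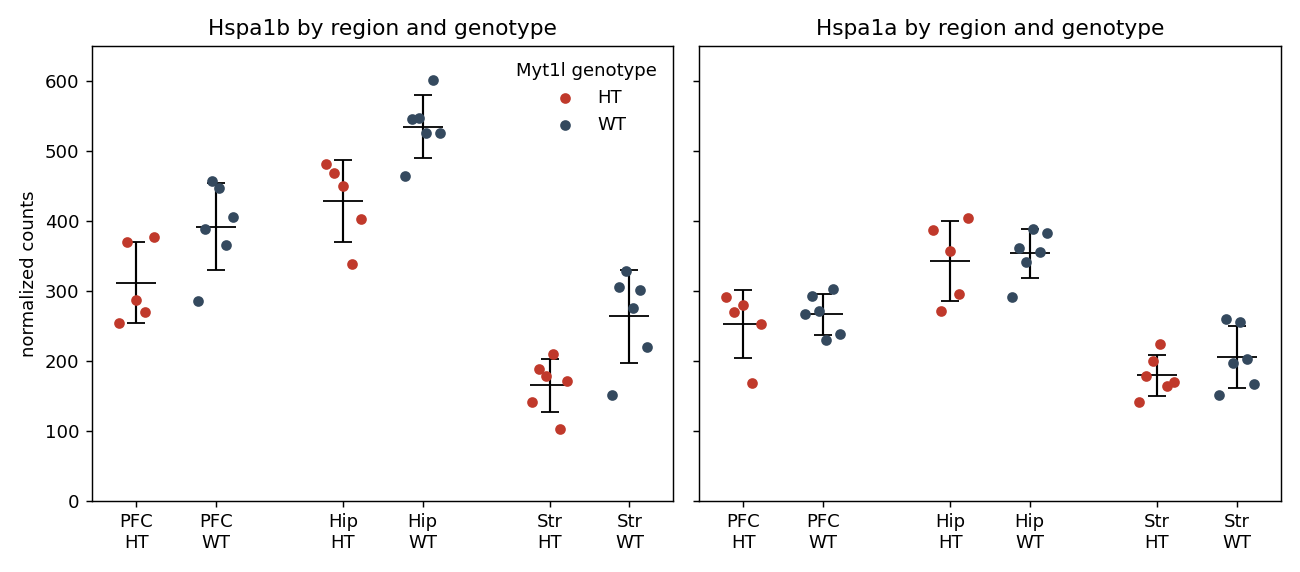
Normalized counts of Hspa1b (left) and Hspa1a (right) in every library, HT in red and WT in dark, by region; horizontal bars are group means and error bars 1 SD. Hspa1b is highest in hippocampus and lowest in striatum in both genotypes, and HT means lie below WT means in all 3 regions for both genes.

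Across the members, 45 of 66 lay below 0 in PFC, 39 of 65 in hippocampus and 39 of 64 in striatum, where limma called 0% of all genes in each region, and 0 members. The median difference was -0.024, -0.013 and -0.017 for the members and -0.003, -0.001 and -0.004 for all genes. The share of all genes below 0 in each region is not given. These values also chose the set, so no shift of the members or their families is read from such counts. At an unadjusted p under 0.05, limma had 833 of 16667 genes in PFC, 1145 of 16820 in hippocampus and 1004 of 17054 in striatum. Members are not counted by unadjusted p, since this contrast chose them. In the average over regions 0.0938% of genes (0.0469% higher and 0.0469% lower) and 0 members were called, with 1598 genes at an unadjusted p under 0.05. Of the 63 members tested in all regions, 24 lay below 0 in all 3 (38.1%) and 8 above, beside 18.7% and 16.3% of all 16011 genes. The 24 include Hspa1a, Hspa1b, Hspa2, Hspa5, Hspa8, Hsp90aa1, Hsp90ab1, Hsp90b1, Hspb1 and Dnajb1, and the 8 include Hsph1, Dnajc12 and Dnajc17. The inducible list had medians of -0.07, -0.05 and -0.06, and 10, 8 and 9 of its 11 genes lay below 0. The HSP70 class had 10 of 13, 10 of 13 and 11 of 12 below 0, and the DnaJ C class 14, 13 and 11 of 25. No share of all genes stands beside these list and class counts. Nothing is read from them or from the 38.1%, since this contrast chose the set.

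The members farthest from 0 relative to their error were, besides Hspa1b, Dnajc14 and Hspa5 below 0 in PFC, Hspa8 and Hsp90aa1 in hippocampus, and Hsp90aa1 and Dnajc30 in striatum. Hspa5 averaged 6696 ± 656 normalized counts in HT and 7288 ± 382 in WT of PFC (SD, n = 5 and 6). Hsp90aa1 averaged 30510 ± 938 in HT and 32370 ± 2021 in WT of hippocampus, and 27372 ± 1273 in HT and 29614 ± 2126 in WT of striatum, with differences of -0.08 (SE 0.04) and -0.11 (SE 0.05). Above 0 stood Hspb7, Dnajc12 and Dnajc9 in PFC, Dnajc17, Dnajb4 and Hspd1 in hippocampus, and Dnajc17, Dnajb13 and Dnajc25 in striatum. Hspb7 was at 22.2 ± 4.12 in HT and 13.5 ± 3.79 in WT of PFC. Dnajc17, linked to splicing, was at 160 to 196 in HT and 133 to 158 in WT of striatum, the 1 member whose genotypes did not overlap in any region. Of all genes, 0.462% in PFC, 0.678% in hippocampus and 0.399% in striatum did not overlap, and nothing about the members is read from this 1. Dnajc17 exons overlap Zfyve19 on the opposite strand.

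**Figure D4:**
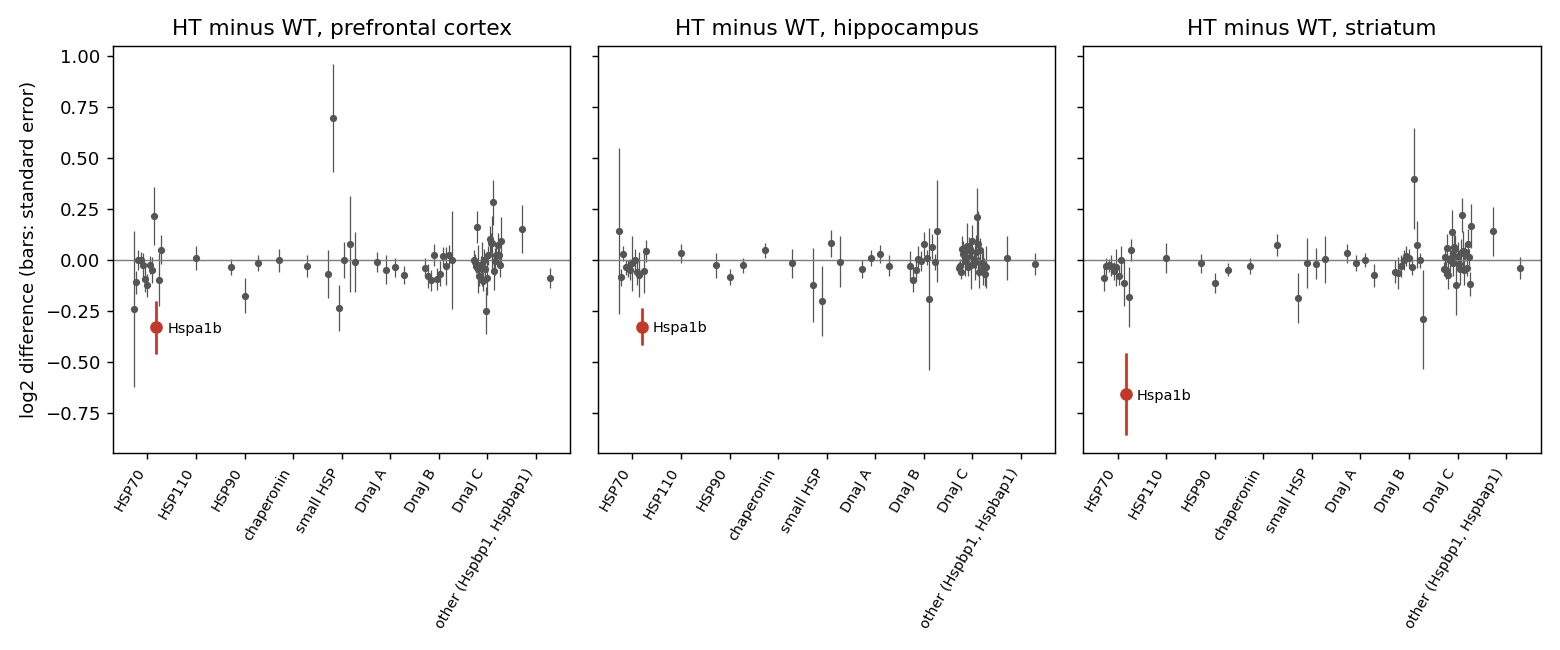
Log2 difference of HT minus WT for each member tested, by family, in prefrontal cortex, hippocampus and striatum; bars are 1 standard error. Hspa1b, in red, lies at -0.33, -0.33 and -0.66, Hspb7 at 0.70 in prefrontal cortex, and Dnajb13 at 0.40 in striatum.

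The summed levels of each marker list overlapped between the genotypes in every region, but several lists lay to one side of 0. In striatum 8 of 8 meningeal markers (median -0.27), 8 of 8 microglial markers (median -0.11) and 9 of 10 striatal markers (median -0.15) were below 0. The meningeal markers summed to 9191 to 14912 normalized counts in HT and 11877 to 16284 in WT of striatum, the microglial ones to 10020 to 11572 in HT and 9719 to 12731 in WT, and the striatal ones to 65720 to 99113 in HT and 77586 to 98053 in WT. In hippocampus 10 of 10 choroid and ependymal markers were above 0 (median 0.21), with sums of 2994 to 86928 in HT and 2558 to 66001 in WT, and in PFC 10 of 12 immediate early genes were below 0 (median -0.12). The immediate early genes summed to 14844 to 26383 normalized counts in HT and 16824 to 28930 in WT of PFC, 7926 to 14162 in HT and 9304 to 11976 in WT of hippocampus, and 8516 to 17963 in HT and 9461 to 12938 in WT of striatum. The choroid and ependymal markers summed to 2269 to 87295 in HT and 23477 to 90649 in WT of striatum. Their part in the genotype values was not tested.

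Co-variation of the inducible genes was measured on log2 values minus the group mean, with 11 libraries in PFC, 11 in hippocampus and 12 in striatum. Hspa1b was set against the 10 other inducible genes in each region, 30 pairs in all, and 0 passed Benjamini-Hochberg adjustment of permutation p-values. The single pair under 0.05 unadjusted was Hspa1b with Hspa1a in striatum: Pearson r was 0.71 (permutation p = 0.00898, adjusted p = 0.269), Spearman rho 0.75 (permutation p = 0.00658, adjusted p = 0.197), and r 0.69 without the 2 libraries farthest from the median of Hspa1b. In PFC r was 0.00 and rho -0.15 (permutation p = 0.993 and 0.65), and in hippocampus r was 0.32 and rho 0.09 (permutation p = 0.342 and 0.796). Without the 2 libraries farthest from the median of Hspa1b, r was -0.01 in PFC and -0.44 in hippocampus, and without the 2 farthest from that of Hspa1a it was -0.24 in PFC, 0.49 in hippocampus and 0.57 in striatum. In PFC and hippocampus the value thus rests on which libraries are left out. A gene pair that shares reads, as these do, can gain or lose correlation through how reads are divided.

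Over all 165 pairs of the 11 genes in the 3 regions, 6 passed the adjusted threshold in PFC, 0 in hippocampus and 2 in striatum. Of these 8 pairs, 5 include the constitutive Hspa8. In PFC they joined Hspa8, Hsph1, Hspd1, Dnaja1 and Hsp90ab1. Hspd1 with Dnaja1 had r 0.89 and rho 0.92 (permutation p = 0.00029 and 0.00018, adjusted p = 0.0275 and 0.0149), and r was 0.81 without the 2 libraries farthest from the median of the gene named first. Hsph1 with Dnaja1 had r 0.86 and rho 0.89 (permutation p = 0.0005 and 0.00055, adjusted p = 0.0275 and 0.0234), with r 0.76 without the 2 libraries. Hsph1 with Hspd1, Hspa8 with Hsp90ab1, Hspa8 with Hsph1 and Hspa8 with Dnaja1 had r of 0.86, 0.86, 0.85 and 0.82, with adjusted permutation p of 0.0311 for the first of these and up to 0.0408 for the last. In striatum Hspa8 and Hspb1 had r 0.86 and rho 0.87 (permutation p = 0.00034 and 0.00071, adjusted p = 0.0275 and 0.0234; r 0.77 without the 2 libraries). Hspa8 and Hsp90ab1 had r 0.79 and rho 0.66 (permutation p = 0.00132 and 0.0226, adjusted p = 0.0311 and 0.199; r 0.57 without the 2 libraries). By rho, 5 of the 6 pairs in PFC and 1 of the 2 in striatum also passed. The median r over the 55 pairs was 0.21 in PFC, 0.21 in hippocampus and 0.27 in striatum, whereas that of these genes with all genes was 0.00, 0.01 and 0.00. Pairs with r over 0.5 numbered 16, 12 and 12 of 55. Of the pairs of these genes with all 17051 genes, 10.1%, 8.17% and 6.57% had r over 0.5. All genes were not matched for level, and the share of other gene pairs that pass the adjusted threshold is not given.

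**Figure D5:**
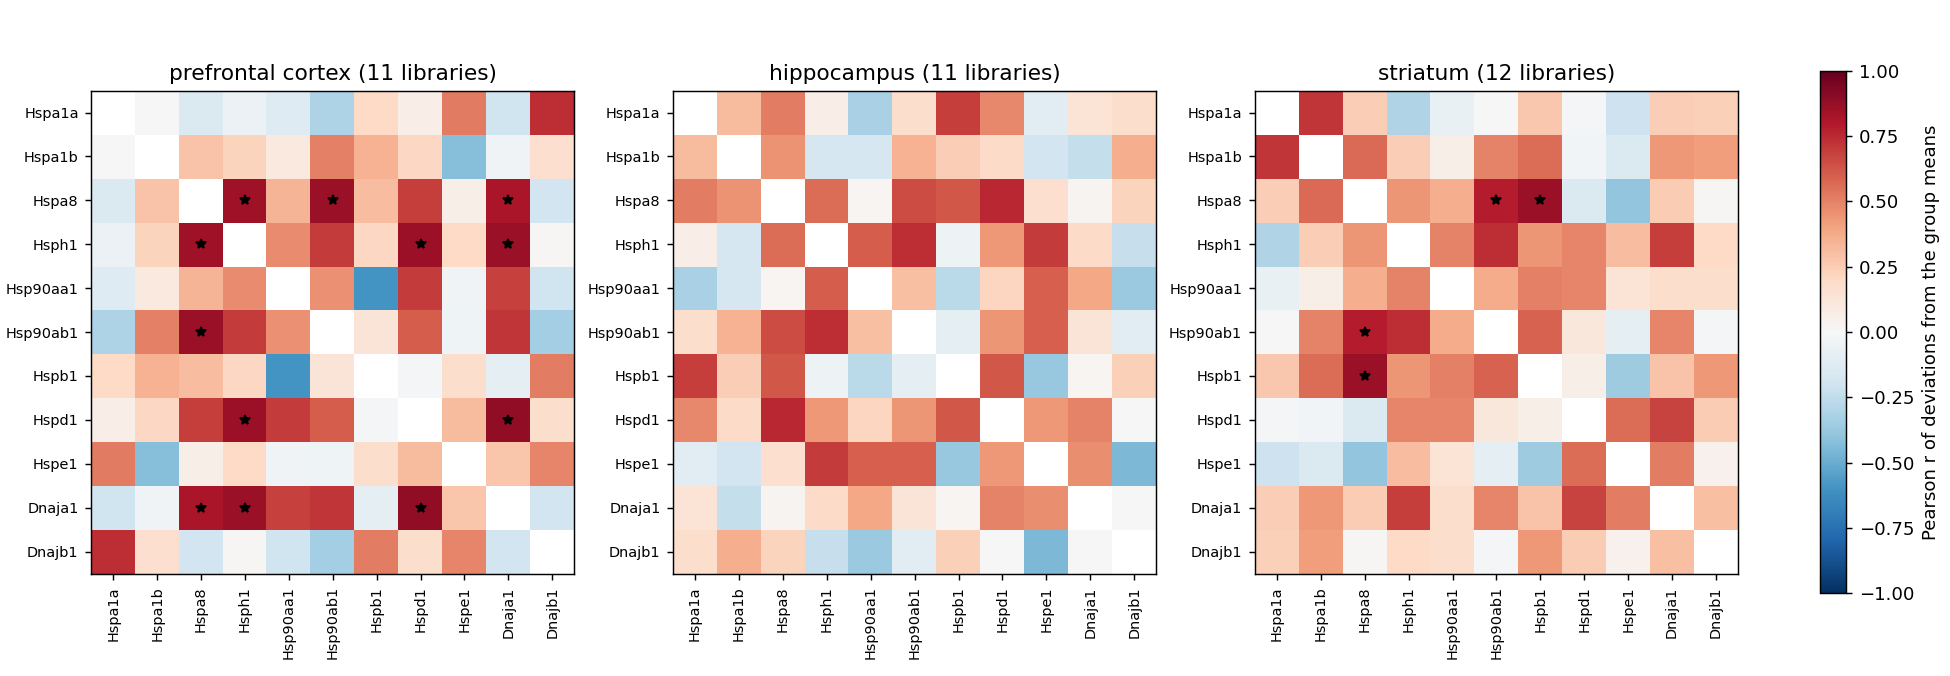
Pearson r between each pair of the 11 inducible genes, on log2 values minus the group mean, in the 3 regions; stars mark pairs past an adjusted permutation p of 0.05. The starred pairs join Hspa8, Hsph1, Hsp90ab1, Hspd1 and Dnaja1 in prefrontal cortex and Hspa8, Hsp90ab1 and Hspb1 in striatum.

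Hspa1b varied more between libraries of a group than most genes of its level. Its pooled SD was 0.29 on the log2 scale, by region 0.25 in PFC, 0.17 in hippocampus and 0.40 in striatum, and 91.9% of the 1118 genes within 0.25 of its mean log2 level had a smaller one. Hspa5 and Dnajb5, at 0.19 and 0.18, exceeded 96.6% and 96.3% of genes of their level. Across codes, the Hspa1b deviation in hippocampus and striatum had r 0.74 and rho 0.58 over 11 codes (permutation p = 0.0113 and 0.0669, adjusted over 3 region pairs to 0.034 and 0.201), but r was 0.09 without the 2 codes farthest from the median, so the relation rests on those codes. Between PFC and the other regions r was 0.10 and 0.08.

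The genes outside the set whose deviations most resembled the mean of the 11 inducible genes over all 34 libraries were Pdia6, Hyou1, Mycbp2, Xbp1, Pdia4, Mlec, Calr, Creld2, Pdia3 and Psmd10, with r between 0.62 and 0.74. Pdia6, Pdia4 and Pdia3 are protein disulfide isomerases and Hyou1 and Calr chaperones of the endoplasmic reticulum, and Xbp1 is a transcription factor of the unfolded protein response. These values are a description: libraries share a code, a scaling and a region, and the genes were picked by their r.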

How the data were processed

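The authors deposited 1 table of DESeq normalized counts, a signal scaled between libraries, for 18548 genes in 34 libraries of total RNA made with a TruSeq kit, per the labels' protocols. The submitters' processing notes name Salmon 1.1.0, DESeq2 1.26.0, R 3.6.2 and GRCm38, with no role or order. Whole reads could not be recovered, so no count model was used, and depth is an estimate from the steps between low values. IDs were matched to GENCODE M21 (18533 matched and 15 not). Genes with a mean of at least 10 in the libraries of a comparison were tested with limma 3.58.1 (R 4.3.3; trended and robust variances) on log2(value + 1), with Benjamini-Hochberg adjustment over all genes and a threshold of 0.05. The 3 regions of a genotype shared 1 fit, genotypes were compared within each region, and their average used the column code as a random block. Differences are on the log2(value + 1) scale, which understates changes of low genes.

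Correlations used 100000 permutations in Python 3.11.15 (numpy 2.4.6, pandas 2.3.3, scipy 1.17.1; figures with matplotlib 3.10.9). On simulated data for WT PFC against hippocampus over 17017 genes, the fit recovered 65% of changes of 0.5 and 83% of changes of 1 on the log2 scale, with 10 false calls of 158. Named genes are Hspa1b and the inducible list in full, per WT region comparison the up to 8 called members with the largest difference in each direction, per genotype comparison the 3 with the largest ratio of difference to SE in each direction, up to 4 of the other lists, and the 10 non-members most like the inducible mean. Other members, such as Hspa4l, Hspa9, Hsp90b1 and Hspb6, were added to complete a family after their values were seen. The members and lists were chosen with earlier results of these data known. Promoter sequences are from RefSeq, GRCm38.p6, and 56 of the 68 members matched. Alternatives were equal library totals, a pseudocount of 10, other filters and variance settings, blocks, single libraries left out, and, chosen after seeing the data, leaving out code 31-67M.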

Additional observations from a re-analysis of the deposited data

Results flagged for a closer look

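In 16 of 246 groups of 5 or 6 libraries, over 41 named genes, 1 library stood apart from the rest by Dixon's 95% limit; chance gives about 1 in 20 groups, here 12.3. In striatum of HT, Dnajb13 was at 18.8 normalized counts in replicate 2, where the others held 47.2 to 59.8, and Dnajb5 was at 3729 in replicate 1, where the others held 2242 to 2795. In the same group Dnajc19 was at 519 in replicate 2 (others 423 to 458) and Dnajc24 at 117 in replicate 1 (others 187 to 224). In hippocampus of HT, replicate 5 was high for Hspa5 at 8283 (others 6406 to 6876) and for Hspb1 at 279 (others 143 to 169). In PFC of WT, Dnajc17 was at 162 in replicate 2 (others 102 to 121), Dnajc2 at 817 in replicate 3 (others 629 to 693), Dnajc24 at 186 in replicate 1 (others 139 to 156) and Hspb8 at 488 in replicate 6 (others 355 to 396). In hippocampus of WT, Dnajc24 was at 233 in replicate 2 (others 161 to 177), and replicate 6 was high for Dnajc6 at 9531 (others 8118 to 8595) and for Hspa12a at 8227 (others 7139 to 7521). In striatum of WT, Dnajc2 was at 1053 in replicate 1 (others 792 to 886), Hspb3 at 21.3 in replicate 5 (others 2.64 to 8.65) and Hspbp1 at 881 in replicate 4 (others 982 to 1039).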

How the results depend on the processing

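Of 76 single-gene results, 56 kept their call under every alternative run and 20 changed in at least 1. Members called ranged over the left-out libraries from 24 to 28, 37 to 41 and 30 to 37 in the WT region comparisons (PFC against hippocampus, PFC against striatum, hippocampus against striatum), and from 27 to 34, 38 to 44 and 33 to 36 in HT. In the average of HT against WT, which used the column code as a random block, 0 members were called. The count was 1 without that block, where 29 genes in place of 16 were called, and 0 to 1 over left-out libraries. Nothing is read from it, since the members were chosen on this contrast. All genes called in that average numbered 2 within code 35, 6 without trended and robust variances and 40 without code 31-67M. Within the regions 0 members were called under each of these. The Hspa1b average difference ranged from -0.49 to -0.40 over left-out libraries. Without the 2 libraries farthest from the Hspa1b median, r of Hspa1a with Hspa1b was -0.0105 in PFC and -0.435 in hippocampus, against -0.24 and 0.49 without the 2 farthest from the Hspa1a median. With equal library totals, Hsp90ab1, Hspa8, Hspb1 and Hsph1 became lower in PFC than in striatum (-0.19, -0.16, -0.33 and -0.16; largest limma adjusted p 0.0449); that scaling moves all genes. Hspa8 was also lower there within code 35 (-0.14; limma adjusted p = 0.0482). The cause of the other changes was not tested. The replicate numbers are not known to pair libraries (12 of 33 same-numbered pairs across regions, and 3 of 16 across genotypes, had r over 0.1). With the number as a replicate block, 25, 41 and 34 members were called in WT and 32, 42 and 34 in HT, and the Hspa1b differences were -0.32, -0.33 and -0.66. By column code, 13 of 32 pairs of the same code across regions had r over 0.1 (median 0.09), against 14 of 163 of different codes (median -0.02). The main region fits did not use the code. With the code as a random block, 73 single-gene WT region results kept their call. Depth limits Hspb3, Hspb7, Dnajb3 and Dnajb13, which have few counts.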
